A study of Mus musculus with 4 samples.

Results

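The minichromosome maintenance (MCM) family was followed through spermatogonia, preleptotene spermatocytes and early spermatocytes of the juvenile mouse testis. Its 10 genes, *Mcm2* to *Mcm10* and *Mcmdc2*, were selected by symbol from the 32285 genes of the deposited matrices. All 10 were present, and the family was taken up with earlier results of these data known. Single-cell libraries had been made from whole testes of 4 pups at postnatal day 15, 2 wild-type and 2 *Meioc*-null, on a C57BL/6N background. MEIOC is an RNA-regulating germ cell protein that promotes the switch from mitosis to meiosis, so the comparison asks what premeiotic replication gene expression looks like without it. Pups of both genotypes also carried 1 targeted *Hspa2* allele and a homozygous *ROSA26-tdTomato* reporter whose stop sequence was intact. Each library came from 1 testis of 1 pup, and replicate 1 of both genotypes was a littermate pair, as was replicate 2. Each genotype therefore had 2 libraries. A p-value below for genotype within a cluster rests only on these 4 pups, with the spread of each gene estimated partly from that of other genes.

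MCM2 to MCM7 form the ring-shaped helicase that is loaded onto replication origins in G1 by the origin recognition complex, CDC6 and CDT1, and that is switched on in S phase when CDC45 and the GINS proteins join it. MCM8 and MCM9 form a separate helicase that acts in homologous recombination, MCM10 helps to activate the replicative helicase, and MCMDC2 is a diverged relative known for its part in meiotic recombination. In the testis, spermatogonia replicate in successive mitotic cycles, and the preleptotene spermatocyte carries out the last S phase before meiotic prophase.

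The 4 libraries held 11986 to 16486 barcodes, of which 6334 to 8494 had more than 1000 detected genes and under 10% mitochondrial unique molecular identifiers (UMIs, each counting 1 captured RNA molecule). Their median depth was 11854 to 14842 UMIs. After doublet removal 26225 cells remained, and 21036 of them (80.2%) were germ cells. Any pair of libraries shared 12 to 16 cell barcodes. Germ cells of the wild type were clustered without using the MCM genes or any other replication, S phase, G2/M or recombination gene listed for this work, and every cell of both genotypes was then placed by its 30 nearest wild-type cells. This gave 10 clusters. A *Meioc*-null cell always took a wild-type label, even if no wild-type cell resembled it. A cluster of *Meioc*-null cells alone could therefore not arise. Cluster 1 was named undifferentiated spermatogonia from its markers, clusters 2, 3, 5 and 6 differentiating spermatogonia, cluster 7 preleptotene spermatocytes, clusters 8 and 9 early spermatocytes and cluster 10 pachytene spermatocytes. Cluster 4 stayed unnamed, with a median depth of 2390 to 3073 UMIs. Of the markers of its best-scoring stage, 1 was seen in enough wild-type cells to count towards a name. Cluster 8 scored nearly as high on the preleptotene markers (0.69) as on the early spermatocyte markers (0.719). Cluster 10 held 299 and 384 wild-type cells and 0 *Meioc*-null cells, so it had no genotype comparison. These names were rebuilt here from markers, so values by cluster may differ from those of any other naming of the cells.

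Levels are given as counts per 1000000 UMIs (CPM), summed over all cells of 1 library in 1 cluster, and are listed as wild-type replicates 1 and 2 and then *Meioc*-null replicates 1 and 2. Each UMI was tagged at the 3′ end of its transcript, so CPM compares 1 gene across cells and not the level of 1 gene with that of another. Differences between clusters of the wild type are given as descriptions with no test, because the clusters were drawn from the same cells. *Meioc* itself does not check the genotype labels: its level in cluster 9 was 468 and 490 CPM in the wild type and 630 and 686 CPM in the *Meioc*-null libraries, and tags at the 3′ end need not lie in the deleted part of the gene.

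In the wild type the 6 subunits of the replicative helicase did not share a single course. Summed over *Mcm2* to *Mcm7*, the level was highest in cluster 3 of the differentiating spermatogonia, at 1370 and 1150 CPM. The genes leading cluster 3 included *Hist1h3c*, *Hist1h2ap* and other histone genes, which were not on the lists left out of the clustering. Histone genes were also among those leading clusters 4, 5 and 7. The sum of the 6 subunits stood at 713 and 590 CPM in cluster 6, the last of the spermatogonial clusters, and was higher again in preleptotene spermatocytes, at 1010 and 781 CPM. In cluster 8 it was 779 and 672 CPM, and in cluster 9 it was 292 and 229 CPM. Set against the mean of the 5 spermatogonial clusters, the preleptotene sum differed by a log2 ratio of -0.15 ± 0.08 (SD, n = 2). Early spermatocytes then lay below preleptotene cells by a log2 ratio of -0.85 ± 0.08 (SD, n = 2). The first of these ratios was -0.43 with a mitochondrial share under 5%, where most of cluster 6 fell into the same cluster as cluster 7, and -0.29 with at least 14 clusters, the latter an alternative chosen after seeing the data. Clusters also differed in the S phase score described below. Its low range held 0.643% and 1.31% of wild-type cells of cluster 7. In cluster 1 it held 71.3% and 68.6%, and in cluster 6 52.3% and 54.1%. In its high range the 6 subunits summed to 4.97 and 3.98 UMIs per cell in cluster 7. Clusters 1, 2, 3 and 5 gave 10.3 and 6.8, 7.86 and 6.59, 7.44 and 5.99, and 6.42 and 5.31. Cluster 6 gave 5.6 in replicate 1 alone. The part of this in the ratio, and in the high level of cluster 3, was not tested.

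**Figure D1:**
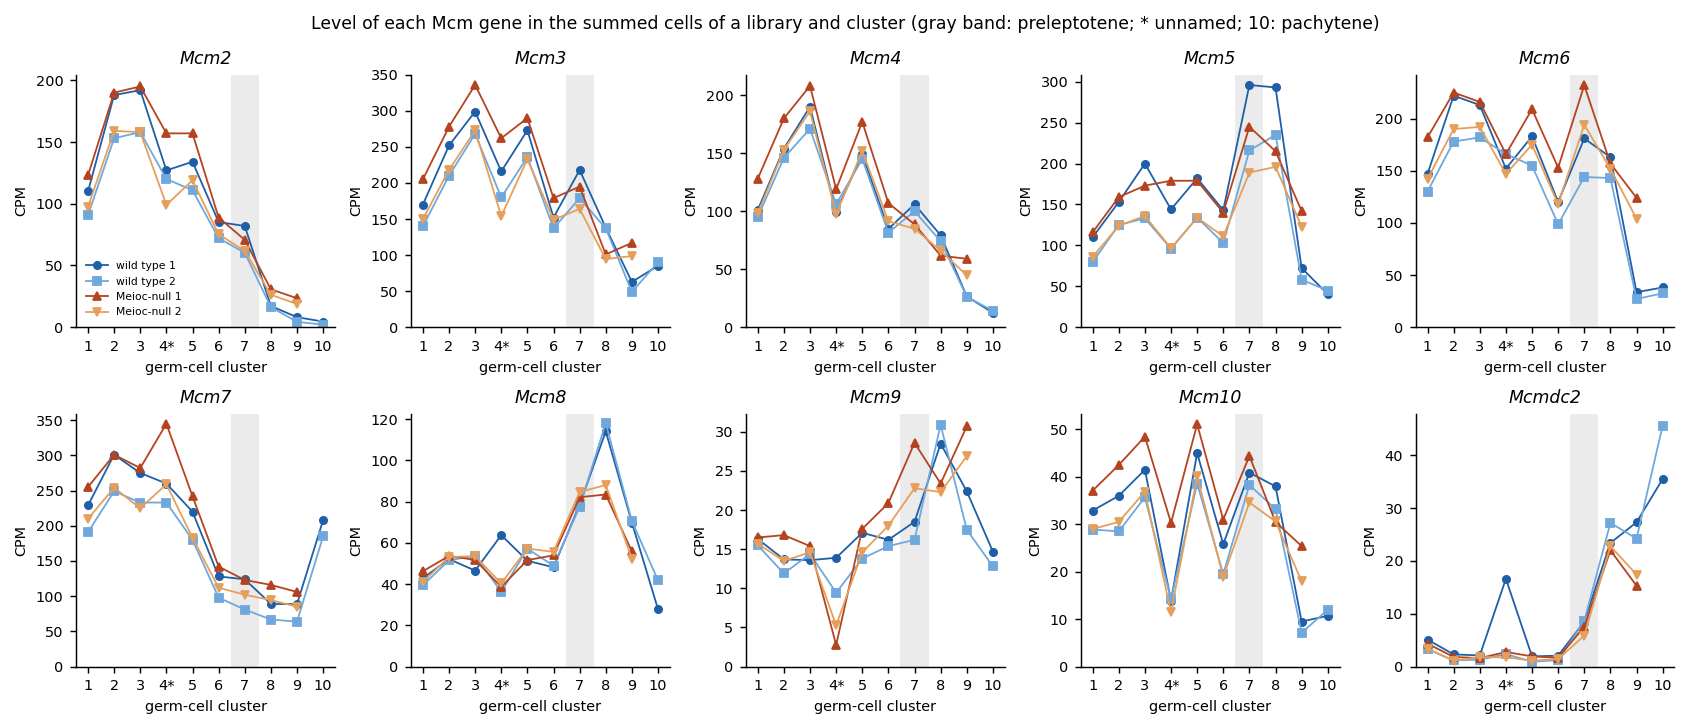
Level (CPM) of each MCM gene in each germ cell cluster, with 1 line per library, clusters in order along the x axis and a gray band over preleptotene cluster 7. *Meioc*-null lines end at cluster 9. *Mcm2* declines from 188 and 153 CPM in cluster 2 of the wild type to 8.16 and 4.39 CPM in cluster 9, whereas *Mcm5* and *Mcm8* are highest in clusters 7 and 8 and *Mcmdc2* in cluster 10.

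*Mcm2* (chr6:88883474-88898780, minus strand, mm10/GRCm38), a subunit of the helicase ring that also binds histones, stood at very different levels between clusters. Its level was 188 and 153 CPM in cluster 2 of the wild type, 82.0 and 60.3 CPM in preleptotene cells, 17.2 and 16.3 CPM in cluster 8 and 8.16 and 4.39 CPM in cluster 9. These 4 clusters stood in the same order in both wild-type libraries. With all 10 clusters put in order of their wild-type mean, the neighbours that overlapped were clusters 3 and 2, clusters 4 and 5, clusters 6 and 7 and clusters 9 and 10. The preleptotene level was lower than the spermatogonial level by a log2 ratio of -0.87 ± 0.11 (SD, n = 2), and the early spermatocyte level was lower than the preleptotene level by -2.52 ± 0.11. In cluster 9 a wild-type *Mcm2* UMI was found in 2.77% and 2.71% of cells thinned to 5000 UMIs. Cells with fewer UMIs were left out of every thinned share, 1128 germ cells in all. Sertoli cells, which are largely postmitotic by this age, gave 3.70% and 5.13%, from the 135 and 117 cells deep enough to be thinned (317 and 174 were left out), and peritubular myoid cells gave 4.95% and 4.35%, at median depths, over all cells before thinning, of 2302 and 3609 UMIs for Sertoli cells, 9677 and 10082 for myoid cells and 11930 and 11697 for cluster 9. The wild-type *Mcm2* signal in cluster 9 lay below the shares in myoid cells, of which thinning left out 26 and 25, and was not told apart from background. Whether myoid cells express *Mcm2* themselves was not tested, and cluster 10 held 4.56 and 2.08 CPM.

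*Mcm7* (chr5:138164583-138172422, minus strand) had the lowest preleptotene to spermatogonia ratio of the 6, with *Mcm2* next. This gene, a core helicase subunit whose intron hosts the *Mir106b*, *Mir93* and *Mir25* hairpins, was at 301 and 249 CPM in cluster 2, 124 and 81.0 CPM in preleptotene cells and 88.8 and 63.8 CPM in cluster 9. The preleptotene to spermatogonia log2 ratio was -1.06 ± 0.23 (SD, n = 2). In pachytene cells its level was again 208 and 185 CPM, above both early spermatocyte clusters in both libraries. *Mcm7* alone made up 53.5% and 50.2% of the 6 subunits' CPM there, against 11.4% and 9.95% in cluster 8. The annotation also places *Cops6* and *Ap4m1* over the *Mcm7* locus on the opposite strand.

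*Mcm5* (chr8:75109569-75128439, plus strand), the ring subunit that forms the gate with MCM2, differed from *Mcm2* and *Mcm7* in clusters 7 and 8, where its level was highest. It was at 143 and 103 CPM in cluster 6, 296 and 216 CPM in preleptotene cells and 293 and 235 CPM in cluster 8, before 72.3 and 58.2 CPM in cluster 9. Clusters 7 and 8 overlapped each other and lay above every other cluster in both wild-type libraries. The preleptotene to spermatogonia log2 ratio was 0.90 and 0.91 in the 2 libraries. Its share of the 6 subunits' CPM was 12.7% and 11.0% in undifferentiated spermatogonia, 29.4% and 27.7% in preleptotene cells and 37.6% and 35.0% in cluster 8. The share of *Mcm2* over the same clusters was 12.7% and 12.5%, then 8.14% and 7.73%, then 2.21% and 2.42%.

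**Figure D2:**
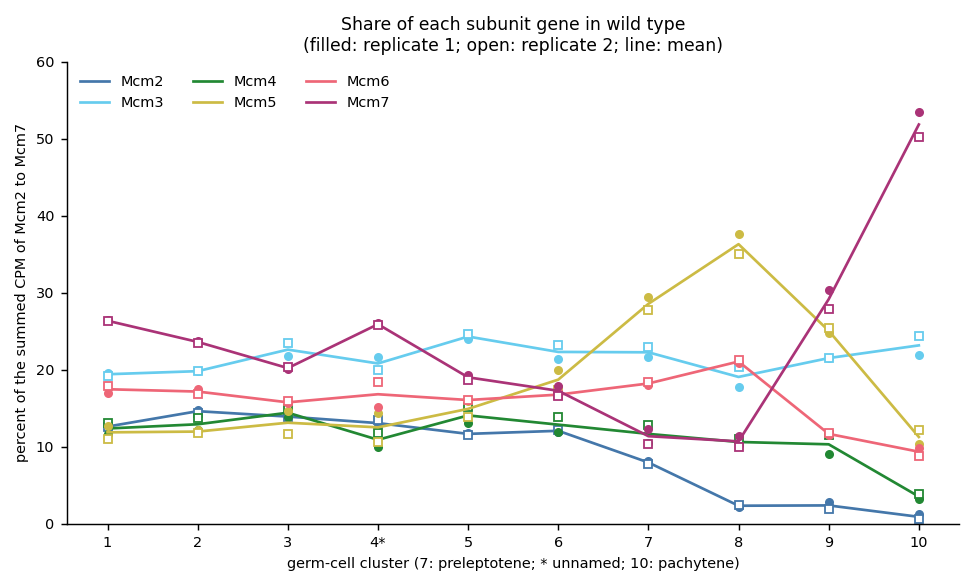
Percent of the summed CPM of *Mcm2* to *Mcm7* that each subunit took in the wild type, by germ cell cluster (filled points replicate 1, open squares replicate 2, lines their mean). *Mcm5* stands at 12.7% and 11.0% in cluster 1 and 37.6% and 35.0% in cluster 8, *Mcm2* at 2.21% and 2.42% in cluster 8, and *Mcm7* at 53.5% and 50.2% in cluster 10.

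The remaining subunits lay between these courses. *Mcm3* (chr1:20802968-20820312, minus strand) was at 299 and 268 CPM in cluster 3, 218 and 179 CPM in preleptotene cells, 138 and 137 CPM in cluster 8 and 62.8 and 49.1 CPM in cluster 9. *Mcm4* (chr16:15623897-15637400, minus strand), which with MCM6 and MCM7 belongs to the catalytic core of the ring, was at 190 and 171, 106 and 100, 79.2 and 74.1, and 26.6 and 26.3 CPM in the same clusters. Both were highest in cluster 3 of the spermatogonia, and their preleptotene to spermatogonia log2 ratios were -0.11 ± 0.05 and -0.35 ± 0.00 (SD, n = 2). *Mcm6* (chr1:128331590-128359664, minus strand) was at 181 and 144 CPM in preleptotene cells and 163 and 143 CPM in cluster 8, and its ratio of -0.01 ± 0.06 did not differ from 0 by more than the spread. It then stood at 33.6 and 27.1 CPM in cluster 9, below every earlier cluster. Wild-type myoid cells held 34.9 and 24.1 CPM of *Mcm6* and 24.8 and 22.4 CPM of *Mcm4*. *Mcm10* (chr2:4989714-5012791, minus strand), the activation factor, was at 45.0 and 38.6 CPM in cluster 5, 40.9 and 38.3 CPM in preleptotene cells and 9.49 and 7.12 CPM in cluster 9. Each of the 6 highest cluster levels of *Mcm10*, preleptotene among them, overlapped its neighbour in the order.

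Across the 20 wild-type sums (10 clusters in 2 libraries), which share libraries and depth, *Mcm2* ran most closely with *Mcm4* (Pearson r = 0.94) and less closely with *Mcm5* (r = 0.55) and *Mcm7* (r = 0.56). These coefficients describe 20 points that are not independent. By the same measure the mean of *Mcm2* to *Mcm7* had its closest patterns among 10029 genes in *Cdc6* (r = 0.99), the loader of the ring, *Ung* (r = 0.98), a uracil DNA glycosylase, *Chtf18* (r = 0.98), part of an alternative clamp loader, and *Tango2* (r = 0.97).

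How many single cells showed all 6 subunits at once depended on depth. Unthinned, all 6 were seen in 92.2% and 86.1% of wild-type cells of cluster 2, 92.4% and 84.6% of cluster 3 and 71.5% and 57.0% of cluster 5. After thinning to 5000 UMIs, with shallower cells left out, all 6 were seen together in 10.7% and 4.85% of wild-type cells of cluster 3. In preleptotene cells this was 2.96% (exact 95% interval 1.88 to 4.40) and 1.05% (0.454 to 2.06), and in the *Meioc*-null libraries 1.90% and 0.909%. Without thinning, the wild-type preleptotene shares were 26.2% and 13.1%. In thinned cells of cluster 9 the count was 0 in every library, which allows shares of thinned cells of up to 0.831%, 0.326%, 1.47% and 1.09%. Unthinned, the cluster 9 shares were 1.07% and 0.213% in the wild type and 12.7% and 6.09% in the *Meioc*-null libraries, whose cells were deeper. Wild-type peritubular myoid cells gave 1.40% and 1.44% unthinned, above the wild-type shares of cluster 9, and 0.183% and 0.189% after thinning. Counting error alone is covered by these intervals and limits.

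Other replication gene lists differed from the helicase ring in the wild type. The origin licensing list (10 genes, among them *Orc1*, *Cdc6* and *Cdt1*) had a preleptotene to spermatogonia log2 ratio of 0.11 ± 0.04 (SD, n = 2). Helicase activation genes (15, among them *Cdc45*, *Gins1* to *Gins4* and *Timeless*) had a ratio of 0.60 ± 0.03, and the polymerase and clamp list (27 genes) 0.19 ± 0.04. For the 39 S phase genes that are not MCM genes it was 0.45 ± 0.03. All 4 ratios were above that of the helicase ring itself, -0.15 ± 0.08. The meiotic recombination list (21 genes in the files) had the highest ratio, 1.24 ± 0.03, and the 53 G2/M genes the lowest, -0.40 ± 0.05.

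**Figure D3:**
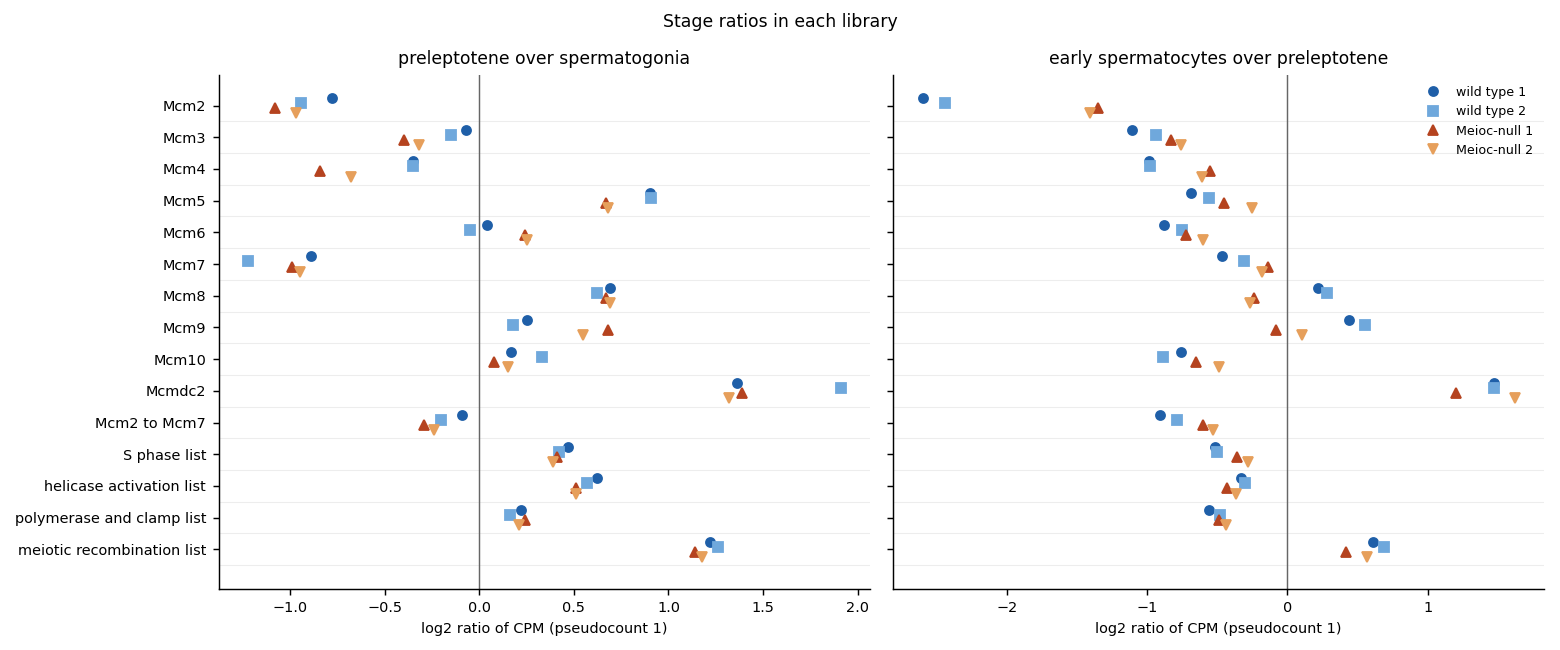
Log2 ratio of CPM between preleptotene spermatocytes and the mean of the spermatogonial clusters, and between early spermatocytes and preleptotene spermatocytes, for each MCM gene, the sum of the 6 subunits and 4 of the other gene lists, with 1 point per library. *Mcm2* and *Mcm7* lie lowest in the first comparison (-0.87 and -1.06 in the wild type) and *Mcmdc2* highest (1.63).

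*Mcm8*, *Mcm9* and *Mcmdc2* did not share a course. *Mcm8* (chr2:132816141-132844197, plus strand), which with MCM9 forms the recombination helicase, was at 48.1 and 48.9 CPM in cluster 6, 78.4 and 77.4 CPM in preleptotene cells, 114 and 118 CPM in cluster 8 and 69.8 and 70.5 CPM in cluster 9. The 2 wild-type libraries differed by little at each step, and clusters 8, 7 and 9 each stood apart from their neighbours in the order. Its log2 ratio was 0.65 ± 0.05 from spermatogonia to preleptotene cells and 0.25 ± 0.04 from there to early spermatocytes (SD, n = 2). A *Mcm8* UMI was seen in 45.2% and 42.3% of thinned wild-type cells of cluster 8, against 2.96% and 3.42% of the same 135 and 117 Sertoli cells and 1.83% and 1.51% of myoid cells.

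*Mcm9* (chr10:53536315-53630439, minus strand), its partner, varied less between clusters. Its level was 16.2 and 15.4 CPM in cluster 6, 18.5 and 16.2 CPM in preleptotene cells, 28.5 and 30.9 CPM in cluster 8 and 22.4 and 17.5 CPM in cluster 9. Only cluster 8 stood apart from its neighbour in both libraries. Sertoli cells held 11.2 and 10.0 CPM and myoid cells 9.10 and 8.57 CPM of *Mcm9*, so its spermatogonial levels lay close to the somatic level. The annotation places 5 other genes over the *Mcm9* locus, *Gm47739* and *Gm47737* on its strand and *Asf1a* among those on the other.

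*Mcmdc2* (chr1:9908638-9942085, plus strand) was the member whose level was highest in the latest clusters. It was at 2.06 and 1.19 CPM in cluster 6, 8.49 and 8.63 CPM in preleptotene cells, 23.4 and 27.2 CPM in cluster 8, 27.3 and 24.2 CPM in cluster 9 and 35.5 and 45.6 CPM in pachytene cells. In the shallow, unnamed cluster 4 it was at 16.6 and 2.36 CPM, from 6 and 3 UMIs. The steps from cluster 6 to cluster 7, from 7 to 8 and from 9 to 10 were larger than the spread between the libraries, that from cluster 8 to cluster 9 was not, and clusters 2, 3, 5 and 6 overlapped. Its log2 ratios were 1.63 ± 0.39 from spermatogonia to preleptotene cells and 1.47 ± 0.00 from there to early spermatocytes (SD, n = 2). Thinned cells with a *Mcmdc2* UMI made up 0.957% and 0.222% of cluster 6, 12.2% and 9.45% of cluster 9 and 17.8% and 22.3% of cluster 10, and 1.10% and 0.756% of myoid cells. The share in cluster 6 did not exceed that of myoid cells and was not told apart from background. *Mcmdc2* ran opposite to *Mcm2* over the 20 wild-type sums (r = -0.87). The genes with the most similar pattern were *Myo1a* (r = 0.98), *Pkd2l2*, *Vamp9* and *Lrriq3* for *Mcmdc2*, *Heatr5b* (r = 0.96), *Uba6*, *Mylk* and *Pikfyve* for *Mcm8*, *Taf15* (r = 0.92), *Atp9b*, *Rab3gap1* and *Recql* for *Mcm9*, and *Prpf3* (r = 0.94), *Timeless*, *Gramd2* and *Rab11fip3* for *Mcm10*.

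The promoters of 6 members with contrasting courses are shown here so that the ring subunits with the lowest preleptotene to spermatogonia ratios (*Mcm2*, *Mcm7*), a pair with other courses (*Mcm5*, *Mcm6*) and the recombination pair (*Mcm8*, *Mcm9*) can be compared. Each runs 5′ to 3′ on the strand of the gene, from 250 bases before to 50 bases after the RefSeq start, on GRCm38.p6. Capitals mark matches, on either strand, to E2F-type letters (TTTGGCGC, TTTCCCGC, TTTGCCGC or TTTCGCGC) or to the STRA8-type letters CNCCTCAG.
*Mcm2* (chr6:88898731-88899030, minus strand): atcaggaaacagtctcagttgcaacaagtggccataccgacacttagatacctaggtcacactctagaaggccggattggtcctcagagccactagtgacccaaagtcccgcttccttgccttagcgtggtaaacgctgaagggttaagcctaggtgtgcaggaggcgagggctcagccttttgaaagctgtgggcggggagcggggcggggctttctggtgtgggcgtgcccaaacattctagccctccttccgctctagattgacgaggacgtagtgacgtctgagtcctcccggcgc
*Mcm5* (chr8:75109259-75109558, plus strand): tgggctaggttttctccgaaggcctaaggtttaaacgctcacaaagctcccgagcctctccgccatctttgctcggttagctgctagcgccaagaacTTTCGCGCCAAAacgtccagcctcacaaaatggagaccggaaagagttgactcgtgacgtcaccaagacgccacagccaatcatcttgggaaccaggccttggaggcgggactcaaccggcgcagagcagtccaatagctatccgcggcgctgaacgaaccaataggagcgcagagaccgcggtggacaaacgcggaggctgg
*Mcm6* (chr1:128359656-128359955, minus strand): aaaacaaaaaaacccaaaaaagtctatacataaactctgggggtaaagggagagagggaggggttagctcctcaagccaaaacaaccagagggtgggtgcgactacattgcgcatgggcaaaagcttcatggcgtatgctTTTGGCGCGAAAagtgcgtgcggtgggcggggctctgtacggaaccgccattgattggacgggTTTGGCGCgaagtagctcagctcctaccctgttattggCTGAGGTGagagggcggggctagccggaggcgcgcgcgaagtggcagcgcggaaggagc
*Mcm7* (chr5:138171834-138172133, minus strand): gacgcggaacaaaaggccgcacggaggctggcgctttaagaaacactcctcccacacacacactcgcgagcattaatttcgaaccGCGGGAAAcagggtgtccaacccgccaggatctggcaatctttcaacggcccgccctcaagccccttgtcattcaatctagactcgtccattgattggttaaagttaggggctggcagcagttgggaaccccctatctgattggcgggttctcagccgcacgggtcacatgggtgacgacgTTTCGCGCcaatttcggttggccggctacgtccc
*Mcm8* (chr2:132815891-132816190, plus strand): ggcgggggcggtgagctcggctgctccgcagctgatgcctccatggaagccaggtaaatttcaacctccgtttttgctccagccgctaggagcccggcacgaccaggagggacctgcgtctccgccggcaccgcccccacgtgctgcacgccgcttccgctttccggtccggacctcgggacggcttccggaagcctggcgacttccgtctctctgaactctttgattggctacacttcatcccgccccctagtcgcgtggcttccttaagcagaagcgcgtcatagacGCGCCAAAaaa
*Mcm9* (chr10:53629908-53630207, minus strand): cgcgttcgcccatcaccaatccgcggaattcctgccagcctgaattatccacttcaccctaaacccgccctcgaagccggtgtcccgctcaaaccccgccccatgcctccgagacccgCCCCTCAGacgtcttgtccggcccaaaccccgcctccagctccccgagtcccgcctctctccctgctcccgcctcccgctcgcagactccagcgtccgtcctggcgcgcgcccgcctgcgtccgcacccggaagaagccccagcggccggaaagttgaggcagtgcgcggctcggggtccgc

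RefSeq promoter entries were found for 8 of the 10 members, not for *Mcm4* or *Mcmdc2*. An E2F-type match stood in 5 of these 8 (*Mcm3*, *Mcm5*, *Mcm6*, *Mcm7* and *Mcm8*), against 2.26% of all 32851 promoters of this length. *Mcm2* and *Mcm7*, both low in preleptotene cells, differed in this, with 0 and 2 matches, and the other RefSeq entry of *Mcm7* held 0. In *Mcm5* the 2 matches overlap in TTTCGCGCCAAA, and 2 of the 3 matches in *Mcm6* overlap in TTTGGCGCGAAA, and in *Mcm7* a match shares 1 base with a CCAAT box. STRA8-type letters stood in *Mcm6* and *Mcm9*, against 7.94% of all promoters. The box CCAAT, on either strand, was in all 8 and in 37.4% of all promoters, and is not in capitals. The matches describe letters in these windows and were not tied to binding.

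In spermatogonia no MCM gene was called different between the genotypes. Over clusters 1, 2, 3, 5 and 6, 49 member-by-cluster results were tested with edgeR's quasi-likelihood test on summed counts (called at an adjusted p under 0.05 and an absolute log2 fold change above 0.1), and 0 were called. At an unadjusted p under 0.05 there was 1, DESeq2 called 0, and a fit with littermate pair as a block also called 0. Log2 fold changes of wild type over *Meioc*-null ran from -0.26 to 0.26, and the lowest adjusted p was 0.48. Calls over all genes were as rare, at 0%, 0.0485%, 0.123%, 0.00782% and 0.583% of those tested in these clusters, in the order given. In the unnamed cluster 4, 0 of 8 tested members and 0.03% of all genes were called. Among the other lists described below, calls in these clusters were 3 of 21 recombination genes in cluster 6, all higher in the wild type. With the block the recombination list had 6 called in cluster 6, 5 of them higher in the wild type, and 5 in cluster 5, where 3 polymerase and clamp genes and 3 S phase genes were called too. Over all genes the block called 800 of 11657 in cluster 6 and 459 of 12786 in cluster 5, and each other list had at most 3 called in any of these clusters. *Mcm2* in cluster 2 was at 188 and 153 CPM in the wild type and 190 and 159 CPM in the *Meioc*-null libraries. The batch difference (replicate 1 above replicate 2) was larger there than the genotype difference.

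In preleptotene spermatocytes 1 of the 10 members was called, *Mcm9*, against 13.6% of all 12333 genes tested (5.18% higher and 8.47% lower in the wild type). *Mcm9* was at 18.5 and 16.2 CPM in the wild type and 28.6 and 22.8 CPM in the *Meioc*-null libraries, which did not overlap. With 2 libraries per genotype, non-overlap here and below is a weak criterion. *Mcm8* in cluster 2 also did not overlap, at a log2 fold change of -0.01. How many of all genes did not overlap was not counted. The log2 fold change of *Mcm9* in preleptotene cells stood at -0.51 ± 0.14 SE with an adjusted p of 0.0338. This call rested on several libraries: without wild-type replicate 1 the fold change was -0.54 (adjusted p = 0.0864), without wild-type replicate 2 it was -0.47 (0.128) and without *Meioc*-null replicate 1 it was -0.41 (0.231). DESeq2 called 0 members in this cluster, where 3 members had an unadjusted p under 0.05 in edgeR's test. With littermate pair as a block, 4 members and 31.9% of all genes were called: *Mcm9*, *Mcm4* (0.30, adjusted p = 0.00632), *Mcm5* (0.29, adjusted p = 0.00399) and *Mcm6* (-0.34, adjusted p = 0.000812). *Mcm4* was also called without doublet removal (0.32, adjusted p = 0.0398), *Mcm6* without the filter on low counts (-0.36, adjusted p = 0.0224), and both with a filter of 25% of cells detected. Cells with a mitochondrial share under 5% gave 0 calls and the other sign for *Mcm9* (0.092), *Mcm4* (-0.20) and *Mcm5* (-0.048), in a cluster that held 98.2% of the remaining cells of cluster 7 and also 70.1% of those of cluster 6.

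*Mcm6* in preleptotene cells was at 181 and 144 CPM in the wild type and 232 and 194 CPM in the *Meioc*-null libraries. The genotypes did not overlap, and within the littermate pairs the log2 ratio of wild type over *Meioc*-null was -0.35 and -0.43. *Mcm4* was at 106 and 100 CPM against 88.7 and 84.9 CPM, with within-pair log2 ratios of 0.26 and 0.23. *Mcm5* was at 296 and 216 CPM against 245 and 189 CPM, where the genotypes overlapped across batches, and its within-pair log2 ratios were 0.27 and 0.19. The median log2 fold change of the members was 0.11, beside -0.01 for all genes.

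Cluster 8, the earlier of the 2 early spermatocyte clusters, had 6 members called, 4 higher in the wild type and 2 higher in the *Meioc*-null libraries, against 34.8% of all 11263 genes tested (15.7% and 19.1%). *Mcm3* was at 138 and 137 CPM in the wild type and 101 and 94.5 CPM in the *Meioc*-null libraries, and had the lowest adjusted p of the cluster's members (log2 fold change 0.55 ± 0.11 SE, adjusted p = 0.00166). *Mcm8* was at 114 and 118 CPM against 83.4 and 88.0 CPM (0.49 ± 0.12, adjusted p = 0.00614). In both genes the genotypes were far apart relative to the replicates. *Mcm5* (0.41, adjusted p = 0.0158) and *Mcm9* (0.45, adjusted p = 0.0478) were also higher in the wild type. *Mcm2* was at 17.2 and 16.3 CPM against 30.7 and 26.3 CPM (-0.71 ± 0.18, adjusted p = 0.00695), and *Mcm7* also was higher without *Meioc* (-0.39, adjusted p = 0.0339). The members' median was 0.29 and that of all genes -0.03.

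Of these calls, those of *Mcm2* and *Mcm3* held when any library was left out. The call of *Mcm5* was lost without wild-type replicate 1 (0.30), that of *Mcm7* without wild-type replicate 2 (-0.22) or *Meioc*-null replicate 1 (-0.32), that of *Mcm8* without *Meioc*-null replicate 1 (0.38) and that of *Mcm9* without wild-type replicate 2 (0.34), *Meioc*-null replicate 1 (0.41) or *Meioc*-null replicate 2 (0.50). Other choices ended calls as well. DESeq2 lost *Mcm7* (-0.36) and *Mcm9* (0.47), and without doublet removal or with the listed genes allowed in the clustering *Mcm5* was lost (0.18 and 0.21). *Mcm9* was also lost without the filter on low counts (0.42), with a filter of 25% of cells detected (0.43) and without doublet removal (0.37, adjusted p = 0.0508). With at least 14 clusters, an alternative chosen after seeing the data, *Mcm9* (0.39, adjusted p = 0.114) and *Mcm7* (-0.28, adjusted p = 0.111) were lost. *Mcm4* (0.32, adjusted p = 0.0733) was called with the littermate block (0.31, adjusted p = 0.024), where 48.4% of all genes were called, and without *Meioc*-null replicate 2 (0.46, adjusted p = 0.0375). With at least 14 clusters *Mcm4* (0.64, adjusted p = 0.0026) and *Mcm10* (0.50, adjusted p = 0.0278) were called, while *Mcm4* was at 0.086 (adjusted p = 0.617) without doublet removal.

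In cluster 9, 9 members were called, 7 higher in the *Meioc*-null libraries and 2 higher in the wild type, against 56.3% of all 11118 genes tested (29% and 27.3%). *Mcm6* was at 33.6 and 27.1 CPM in the wild type and 124 and 104 CPM in the *Meioc*-null libraries. Wild-type myoid cells held a like 34.9 and 24.1 CPM. A *Mcm6* UMI was seen in 16.6% and 14.2% of thinned wild-type cells of cluster 9 and in 11.4% and 9.64% of myoid cells. How much of this wild-type level is background was not tested. Both *Meioc*-null libraries lay far above both wild-type libraries, and the fold change (log2) was -1.87 ± 0.12 SE with an adjusted p of 1.79e-12. *Mcm2* was at 8.16 and 4.39 CPM, a level not told apart from background above, against 23.5 and 18.8 CPM (-1.79 ± 0.26, adjusted p = 1.89e-06). *Mcm10* was at 9.49 and 7.12 CPM against 25.4 and 18.0 CPM (-1.35 ± 0.23, adjusted p = 1.65e-05). The genotypes did not overlap in any of the 3 genes, which with 2 libraries each is a weak criterion.

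*Mcm5* (-0.98), *Mcm3* (-0.91) and *Mcm4* (-0.89) were also higher without *Meioc*, with *Mcm5* at 72.3 and 58.2 CPM against 142 and 123 CPM. The wild-type level of *Mcm4*, 26.6 and 26.3 CPM, lay close to the 24.8 and 22.4 CPM of wild-type myoid cells. *Mcm9* was higher by less (-0.50 ± 0.17, adjusted p = 0.0164), a call that was lost without wild-type replicate 2 (-0.34) or *Meioc*-null replicate 1 (-0.46), under DESeq2 (-0.47), without the filter on low counts (-0.42) and with at least 14 clusters (-0.49). *Mcm7* was at 88.8 and 63.8 CPM against 106 and 85.1 CPM, overlapped between genotypes and was not called (-0.29, adjusted p = 0.0558). It was called with the littermate block (-0.29, adjusted p = 0.00383), where 64.6% of all genes were called, without wild-type replicate 1 (-0.45) or *Meioc*-null replicate 2 (-0.41) and with cells placed in clusters by their 15 nearest wild-type cells instead of 30 (-0.29, adjusted p = 0.0464), and its sign turned without doublet removal (0.34) or with the listed genes allowed in the clustering (0.23). The shares of the subunits differed too: *Mcm6* made up 11.5% and 11.8% of the 6 in the wild type and 21.7% and 21.8% in the *Meioc*-null libraries, and *Mcm7* 30.4% and 27.9% against 18.6% and 17.9%.

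*Mcm8* and *Mcmdc2* went the other way in cluster 9. *Mcm8* was at 69.8 and 70.5 CPM in the wild type and 55.8 and 52.2 CPM in the *Meioc*-null libraries (0.44 ± 0.12 SE, adjusted p = 0.00277). *Mcmdc2* was at 27.3 and 24.2 CPM against 15.3 and 17.4 CPM (0.68 ± 0.18, adjusted p = 0.00287). In each, both wild-type libraries were above both *Meioc*-null libraries, and the call of *Mcm8* was lost without doublet removal (0.22, adjusted p = 0.242). The median of the 10 members was -0.90, beside -0.02 for all genes.

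**Figure D4:**
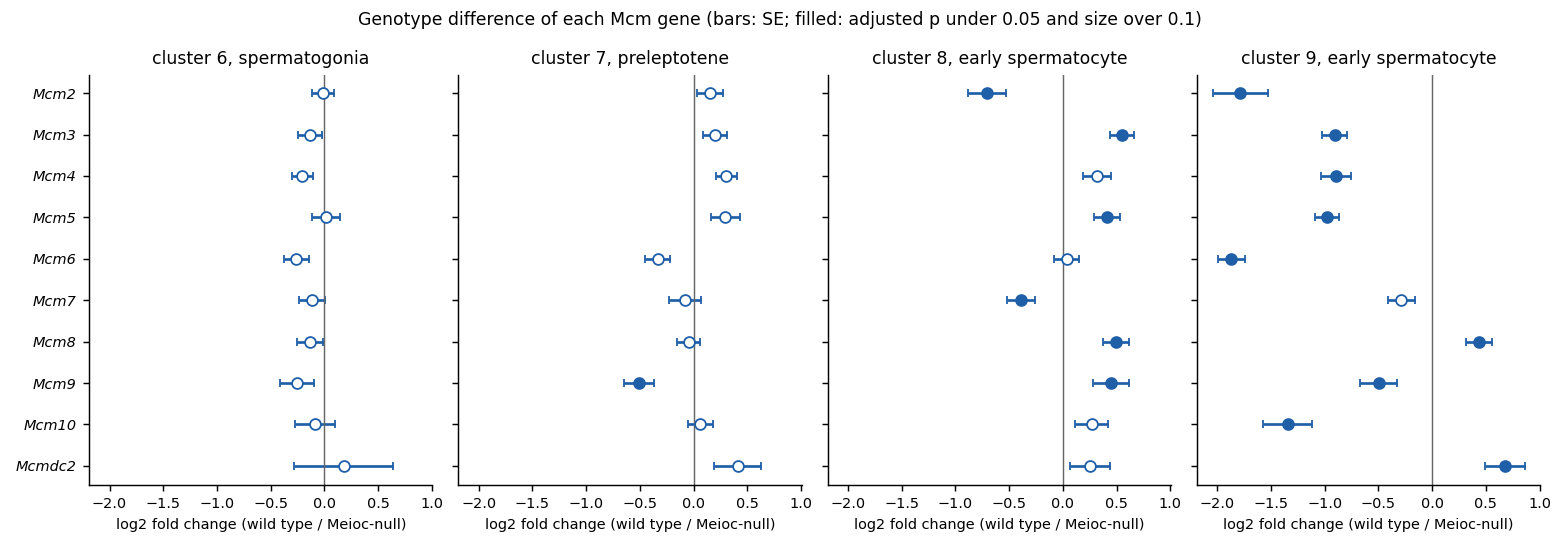
Log2 fold change (wild type over *Meioc*-null, with standard error) of each MCM gene in clusters 6 to 9, with called results filled. No point is filled in cluster 6, *Mcm9* alone is filled in cluster 7, and in cluster 9 *Mcm6* (-1.87) and *Mcm2* (-1.79) lie lowest while *Mcmdc2* (0.68) and *Mcm8* (0.44) lie above 0.

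Other markers moved with genotype in the same cells. In cluster 9 the 6 preleptotene markers, all detected, summed to 494 and 519 CPM in the wild type and 1280 CPM in each *Meioc*-null library, with *Stra8*, the retinoic acid-induced meiotic regulator, at 17.1 and 18.4 against 515 and 479 CPM. *Meioc* itself is among these 6 and made up most of the wild-type sum, at 468 and 490 against 630 and 686 CPM. All 7 markers of differentiating spermatogonia were detected and summed to 260 and 234 against 911 and 806 CPM. The 8 pachytene markers, of which *Ccna1* was at 0 in every library, summed to 799 and 718 against 282 and 295 CPM. Early spermatocyte markers, the list that gave the cluster its name, were higher without *Meioc*, at 5040 and 4520 against 6150 and 5500 CPM. Median depth in cluster 9 was 11930 and 11697 UMIs in the wild type and 13615 and 16556 in the *Meioc*-null libraries, and the cluster held 374 and 937 against 213 and 279 cells. In cluster 8, preleptotene markers summed to 1150 and 1010 against 2600 and 2660 CPM. Early spermatocyte markers there were at 5120 and 4880 against 5800 and 5670 CPM. Markers of differentiating spermatogonia were at 357 and 301 against 574 and 548 CPM, and pachytene markers at 349 and 325 against 224 and 239 CPM. The part of these differences in the MCM results was not tested. In summed counts a shift within a cluster, *Meioc*-null cells unlike any wild-type cell and a change of RNA per cell cannot be told apart. Sertoli markers in cluster 9 summed to 76.4 and 47.1 CPM in the wild type and 88.1 and 49.9 CPM in the *Meioc*-null libraries, and myoid markers to 39.5 and 17.2 against 43.4 and 24.6 CPM, higher in replicate 1 of both genotypes.

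Cells in the same range of S phase score were set side by side within cluster 9, as a description. The score summed 39 S phase genes without MCM genes in cells thinned to 5000 UMIs, with ranges divided at 23 and 36 UMIs, and 14.4% of wild-type germ cells lay within 1 UMI of a limit. In the low range, which held 88.9% and 87.9% of wild-type and 38.2% and 51.1% of *Meioc*-null cells of cluster 9, the 6 subunits summed to 1.41 and 1.05 UMIs per wild-type cell. *Meioc*-null cells of the same range held 2.35 and 2.28 UMIs. *Mcm6* alone was at 0.181 and 0.141 against 0.410 and 0.553 UMIs per cell. The low range has no lower limit above 0, so scores within it need not be alike between the genotypes, and the 39 genes summed to 3130 and 3050 CPM in all wild-type cells of the cluster and 5140 and 4840 CPM in all *Meioc*-null cells.

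Of the other replication genes called in cluster 9, most were higher without *Meioc*. The counts that follow stand beside the 56.3% of all genes called there, 29% higher in the *Meioc*-null libraries and 27.3% higher in the wild type. Of the origin licensing list 7 of 10 were called, 1 higher in the wild type and 6 in the *Meioc*-null libraries. Among them were *Cdc6* (-2.11), *Orc1* (-1.81) and *Cdt1* (-1.44), which together load the ring. Of 15 helicase activation genes 11 were called, 3 higher in the wild type and 8 in the *Meioc*-null libraries, led by *Gins3* (-1.86), a subunit of GINS, *Timeless* (-1.18), a fork protection factor, and *Ticrr* (-1.02). Of 26 polymerase and clamp genes 17 were called, 16 of them higher in the *Meioc*-null libraries, led by *Pold4* (-3.02), *Rrm2* (-2.37), which makes deoxyribonucleotides, and *Lig1* (-1.61), which joins Okazaki fragments. Of the 39 S phase genes, which share members with these lists, 29 were called and all 29 were higher without *Meioc*, and with the block 30 of 31 called were. The recombination list split 9 to 8 among 17 called of 21, and the G2/M list had 44 of 53 called, 39 of them higher in the *Meioc*-null libraries. List medians were -0.46 for origin licensing, -0.52 for helicase activation, -0.40 for polymerase and clamp, -0.67 for S phase, -0.15 for recombination and -0.64 for G2/M.

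**Figure D5:**
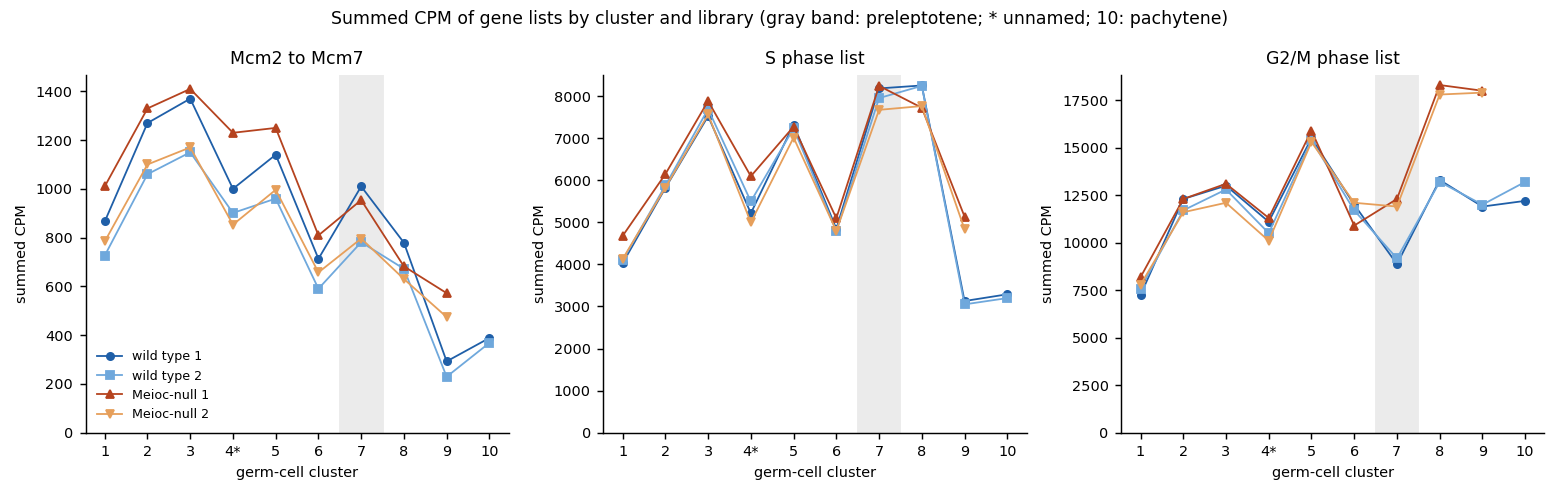
Summed level (CPM) of *Mcm2* to *Mcm7*, of the S phase list and of the G2/M list in each germ cell cluster, with 1 line per library and a gray band over preleptotene cluster 7. The sum of *Mcm2* to *Mcm7* in cluster 9 is 292 and 229 CPM in the wild type and 572 and 474 CPM in the *Meioc*-null libraries, and the G2/M list is higher without *Meioc* in clusters 7 to 9.

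In preleptotene cells, where 13.6% of all genes were called, the same lists gave few calls apart from G2/M. Called were 1 of 10 origin licensing genes (*Cdt1*, -0.66, adjusted p = 0.0179), 1 of 15 helicase activation genes (*Gins2*, 0.35, adjusted p = 0.0456) and 1 of 26 polymerase and clamp genes (*Rfc1*, -0.38, adjusted p = 0.0444), with 3 of 39 S phase and 4 of 21 recombination genes. With the littermate block, under which 31.9% of all genes were called, these counts were 3, 3, 5, 9 and 8. Of the 53 G2/M genes 34 were called, all higher in the *Meioc*-null libraries, and their sum was 8870 and 9170 CPM in the wild type against 12300 and 11900 CPM. In cluster 8, where 34.8% of all genes were called, the counts were 3 of 10 for origin licensing, 6 of 15 for helicase activation (all higher in the wild type), 8 of 27 for polymerase and clamp, 16 of 39 for S phase (11 higher in the wild type), 9 of 21 for recombination (7 higher in the wild type) and 40 of 53 for G2/M (39 higher in the *Meioc*-null libraries). With the block, under which 48.4% of all genes were called, they were 3, 9 (7 higher in the wild type), 10, 19, 12 and 42.

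Whether the genotype difference itself changed between stages was tested in 1 model over all clusters, with a term for each library. The error of this model is the residual spread between clusters of the same 4 pups, which are not independent. These p-values therefore do not measure the spread between pups alone. From spermatogonia to preleptotene cells, the genotype difference changed in 6 of the 10 members, 4 towards the wild type and 2 towards the *Meioc*-null, against 22.6% of 13307 genes (10.6% and 12.1%). *Mcm4* changed most (difference of log2 fold changes 0.47 ± 0.08 SE, adjusted p = 9.68e-06), followed by *Mcm3* (0.30, adjusted p = 0.00104), *Mcm5* (0.28, adjusted p = 0.00264) and *Mcm2* (0.22, adjusted p = 0.0288). *Mcm9* (-0.39, adjusted p = 0.0272) and *Mcm6* (-0.19, adjusted p = 0.0387) changed in the other direction. With the littermate block, under which 18.7% of genes were called, *Mcm2* (0.22, adjusted p = 0.101) and *Mcm6* (-0.19, adjusted p = 0.113) were lost and 4 remained. DESeq2 size factors lost *Mcm6* (-0.15, adjusted p = 0.138) and *Mcm9* (-0.34, adjusted p = 0.051), and *Mcm2* was lost without the filter on low counts (0.17, adjusted p = 0.195). Fewer members were called with any library left out, and most calls were lost without wild-type replicate 1. Apart from the main and block fits, no share of all genes was set beside these members. A change in the members can therefore not be told from a general change in calls.

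From preleptotene cells to clusters 8 and 9 together the genotype difference changed in 8 members, 2 towards the wild type and 6 towards the *Meioc*-null, against 40.3% of genes (20.8% and 19.5%), and 37.2% of genes with the littermate block, which also called 8. *Mcm2* changed most (-1.35 ± 0.13 SE, adjusted p = 3.18e-11), with a wild-type level in cluster 9 that was not told apart from background. *Mcm10* (-0.55), *Mcm4* (-0.54), *Mcm6* (-0.52), *Mcm5* (-0.51) and *Mcm3* (-0.32) changed in the same direction. For these 5 the average hides a difference between its 2 clusters: the log2 fold changes in clusters 7, 8 and 9 were 0.20, 0.55 and -0.91 for *Mcm3*, 0.30, 0.32 and -0.89 for *Mcm4*, 0.29, 0.41 and -0.98 for *Mcm5*, -0.34, 0.03 and -1.87 for *Mcm6* and 0.06, 0.27 and -1.35 for *Mcm10*. The values lay below those of cluster 7 in cluster 9 and not in cluster 8. *Mcm8* (0.56, adjusted p = 9.3e-05) and *Mcm9* (0.54, adjusted p = 0.00306) changed towards the wild type. *Mcm9* was at -0.51, 0.45 and -0.50 in clusters 7, 8 and 9, so its pooled value came from cluster 8, where its call was lost in several alternatives. In the libraries themselves, the log2 ratio of *Mcm8* between early spermatocytes and preleptotene cells was 0.22 and 0.28 in the wild type and -0.24 and -0.27 in the *Meioc*-null. The call of *Mcm3* was lost without wild-type replicate 1 (-0.30), that of *Mcm9* without wild-type replicate 2 (0.50) or *Meioc*-null replicate 1 (0.44), and that of *Mcm10* without wild-type replicate 2 (-0.44). *Mcm7* (-0.20, adjusted p = 0.0667) and *Mcmdc2* (0.13, adjusted p = 0.767) were not called, and *Mcm7* passed under DESeq2 size factors (-0.24, adjusted p = 0.0351) or when wild-type replicate 2 was left out (-0.26).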

How the data were processed

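Chromium 3′ libraries had been aligned and counted by the authors with Cell Ranger 4.0.0 on mm10, and the deposited values were raw UMI counts per gene and barcode. The members and gene lists were chosen with earlier results of these data known. Cells with more than 1000 genes and under 10% mitochondrial UMIs were kept, and the cells with the highest Scrublet doublet scores (9.59% to 13.2% per library) were removed. That share was set in proportion to the deposited barcodes of each library. Scrublet's own threshold called 1.94% to 4.58%, so most removed cells were not called doublets by it. Germ cells were clustered in scanpy 1.11.5 as described above. Clusters with at least 50 cells in every library were tested on summed counts (mean of at least 10 per library) in edgeR 4.0.16 (TMM, quasi-likelihood test, Benjamini-Hochberg adjustment over all genes tested), with DESeq2 1.42.0 as an alternative. Each SE of a fold change was its absolute log2 value divided by the square root of the F statistic of edgeR's test. Log2 ratios between stages used a pseudocount of 1 CPM. The named genes were the members and, per pathway list, up to 3 called genes with the largest change. The replicate number marks a littermate batch per the labels, and deviations of same-numbered libraries correlated at 0.206 to 0.366. Gene coordinates are from GENCODE, promoters from RefSeq (GRCm38.p6).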

Additional observations from a re-analysis of the deposited data

Results flagged for a closer look

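All results that stood out did so because the genotype difference itself differed between stages in a test of that difference (edgeR's quasi-likelihood test, adjusted p under 0.05 over all genes). Values are differences of log2 fold changes of wild type over *Meioc*-null. Between spermatogonia and preleptotene cells they were 0.22 for *Mcm2*, 0.30 for *Mcm3*, 0.47 for *Mcm4*, 0.28 for *Mcm5*, -0.19 for *Mcm6* and -0.39 for *Mcm9*. Between preleptotene cells and early spermatocytes they were -1.35 for *Mcm2*, -0.32 for *Mcm3*, -0.54 for *Mcm4*, -0.51 for *Mcm5*, -0.52 for *Mcm6*, 0.56 for *Mcm8*, 0.54 for *Mcm9* and -0.55 for *Mcm10*. The preleptotene values enter both comparisons. The early spermatocyte value averages clusters 8 and 9, and for *Mcm3* to *Mcm6* and *Mcm10* cluster 9 alone lay below the preleptotene value, while for *Mcm9* cluster 8 lay above it and cluster 9 close to it. With 2 libraries a group, single libraries were not examined as outliers.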

How the results depend on the processing

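Over all clusters 16 member results were called, 1 in cluster 7, 6 in cluster 8 and 9 in cluster 9. Of all genes tested in these clusters, 13.6%, 34.8% and 56.3% were called. Alternatives that changed the clustering were counted over every cluster testable in them, so their counts need not cover the same tests. The count was 21 with the replicate block (littermate pair), 12 with DESeq2, 15 without the filter on low counts, 17 with a detection filter of 25% of cells, 14 without doublet removal and 20 with at least 14 clusters (added after seeing the data). With a library left out the count lay below or above 16, where the lone library of a genotype is assumed to vary like the others. It was 0 with a mitochondrial share under 5%, which left 6404 cells and 2 testable germ cell clusters, neither an early spermatocyte cluster. *Mcm2* and *Mcm3* in cluster 8 and *Mcm2* to *Mcm6*, *Mcm10* and *Mcmdc2* in cluster 9 stayed called in every other alternative that gave them a value. Over all genes the block called 3939, 5455 and 7179 in clusters 7, 8 and 9 against 1683, 3920 and 6254. In clusters 1 to 6 it called 78, 139, 94, 19, 459 and 800 against 0, 7, 14, 2, 1 and 68. DESeq2 called 1061, 2818 and 4609 in clusters 7, 8 and 9. For the other alternatives no share of all genes was set beside the member count. The change from spermatogonia to preleptotene cells was called in 6 members and 22.6% of all genes, and with the block in 4 and 18.7%. It was called in 4 members with DESeq2 size factors, in 5 without the filter on low counts and in fewer than 6 with any library left out. The change to early spermatocytes was called in 8 members and 40.3% of all genes, in 8 and 37.2% with the block and in 9 members with DESeq2 size factors. Where no share of all genes is given, none was set beside the count. The preleptotene to spermatogonia log2 ratio of the summed ring (-0.15) was -0.43 with a mitochondrial share under 5% and -0.29 with at least 14 clusters. The share of preleptotene cells with all 6 subunits was 0.512% and 0.26% at 3000 UMIs and 26.2% and 13.1% without thinning. For these and the following moves the cause was not tested.

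Signs that turned were, in cluster 7 with a library left out, *Mcm2* (-0.014 to 0.309), *Mcm7* (-0.35 to 0.14), *Mcm8* (-0.139 to 0.053) and *Mcm10* (-0.036 to 0.175), and in cluster 8 *Mcm6* (-0.023 to 0.101). With a mitochondrial share under 5% the cluster matched to cluster 7, which also took 70.1% of cluster 6, gave -0.012 for *Mcm3*, -0.20 for *Mcm4*, -0.048 for *Mcm5*, 0.092 for *Mcm9* and -0.22 for *Mcm10*. *Mcm6* in cluster 8 was -0.23 without doublet removal and -0.18 with the listed genes allowed, and *Mcm7* in cluster 9 was 0.34, 0.23 and, with at least 14 clusters, 0.057. For the stage change from spermatogonia, *Mcm7* was 0.021 with DESeq2 size factors and -0.21 to 0.12 with a library left out, *Mcm8* was -0.036 without the filter and -0.029 to 0.051, and *Mcmdc2* -0.071 to 0.767. For the change to early spermatocytes *Mcmdc2* was -0.099 to 0.354.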
